A study of Homo sapiens with 12 samples.

Results

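Cells treated with mitoxantrone-liposome plus gilteritinib (Com) were compared with cells treated with gilteritinib alone (Gilteritinib), which asks what the liposomal drug added at the RNA level while the FLT3 kinase was inhibited. The comparison was chosen by its treatment labels and takes 6 of the 12 RNA-seq libraries of the study, 3 of Com and 3 of Gilteritinib, and each Com library was set against the Gilteritinib library with the same replicate number. All 12 libraries came from MV4-11, an established human acute myeloid leukemia (AML) cell line that carries an internal tandem duplication in FLT3 (FLT3-ITD), although the genotype field of the labels reads wild type. Com was 20 nM mitoxantrone-liposome (Mito-Lipo) with 20 nM gilteritinib, and Gilteritinib was 25 nM gilteritinib, each for 24 h. The other 6 libraries, 20 nM Mito-Lipo and DMSO, were used to show the same addition of Mito-Lipo in cells without gilteritinib. Com therefore held 20 nM of gilteritinib where the single drug was given at 25 nM, and the addition of Mito-Lipo cannot be told apart from this lower dose in any value below. The labels call the first drug mitoxantrone, and nothing in the sources used here says whether libraries of one condition came from separate cultures, so the p-values measure the spread between these libraries, which may be technical.

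Mitoxantrone traps topoisomerase II on DNA and leaves double-strand breaks. Breaks stabilise the transcription factor p53, which switches on CDKN1A and other genes that hold the cell cycle or promote apoptosis, and cells that stop cycling lower the genes of mitosis, DNA replication and histone supply. FLT3-ITD signals without ligand through STAT5, RAS-ERK and PI3K-AKT, and gilteritinib blocks the kinase.

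Expression was given as FPKM, a fragment count scaled by gene length and sequencing depth. The values were turned into log2(FPKM + 1), and 18574 genes were tested, those that reached 1 FPKM in 3 or more of the 12 libraries. Differences below are on that scale, Com minus Gilteritinib, with the standard error (SE) of a limma fit over all 12 libraries that holds the replicate number as a block. The 6 libraries compared held 34110000 to 41330000 fragments, as recovered from the FPKM. Myeloid markers were at high levels in all 6 libraries, with LYZ at an FPKM of 539 to 1333, SPI1 at 61.2 to 88.1, CEBPA at 50.2 to 66.3 and HOXA9 at 14.9 to 21.1, while the granule enzyme MPO was at 2.06 to 2.60. The markers of T, erythroid, epithelial, fibroblast and endothelial cells were at 1.26 or lower. Libraries of replicate number 1 stood apart from those of numbers 2 and 3 in every condition. For many genes and lists the values or differences at each replicate number are therefore given beside the fitted difference. For the others only the fitted difference is given.

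No gene passed an adjusted p of 0.05 in limma (Benjamini-Hochberg over 18574 genes), which is 0.0% in either direction, and the smallest adjusted p was 0.5441. At an unadjusted p under 0.05, 461 genes were higher in Com (2.48% of those tested) and 354 were lower (1.91%). The higher genes were 56.6% of these calls, against 45.3% with median-ratio scaling, 43.0% with quantile normalization and 44.2% with a correction for GC content, so the balance of the directions depends on the scaling. Without replicate number 1, 6 genes were higher and 1 lower at an adjusted p under 0.05, CDKN1A among the higher. That fit had 722 genes higher and 498 lower at an unadjusted p under 0.05, the counts to set beside those of list members in it. In 719 genes (3.87%) the 3 Com libraries lay above all 3 Gilteritinib libraries, and in 432 (2.33%) they lay below. Over all genes tested 57.2% had a fitted difference above 0, the share to set beside the counts of list members above 0. The median difference was 0.02, and it was 0.06, -0.03 and 0.03 at replicate numbers 1, 2 and 3.

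**Figure D1:**
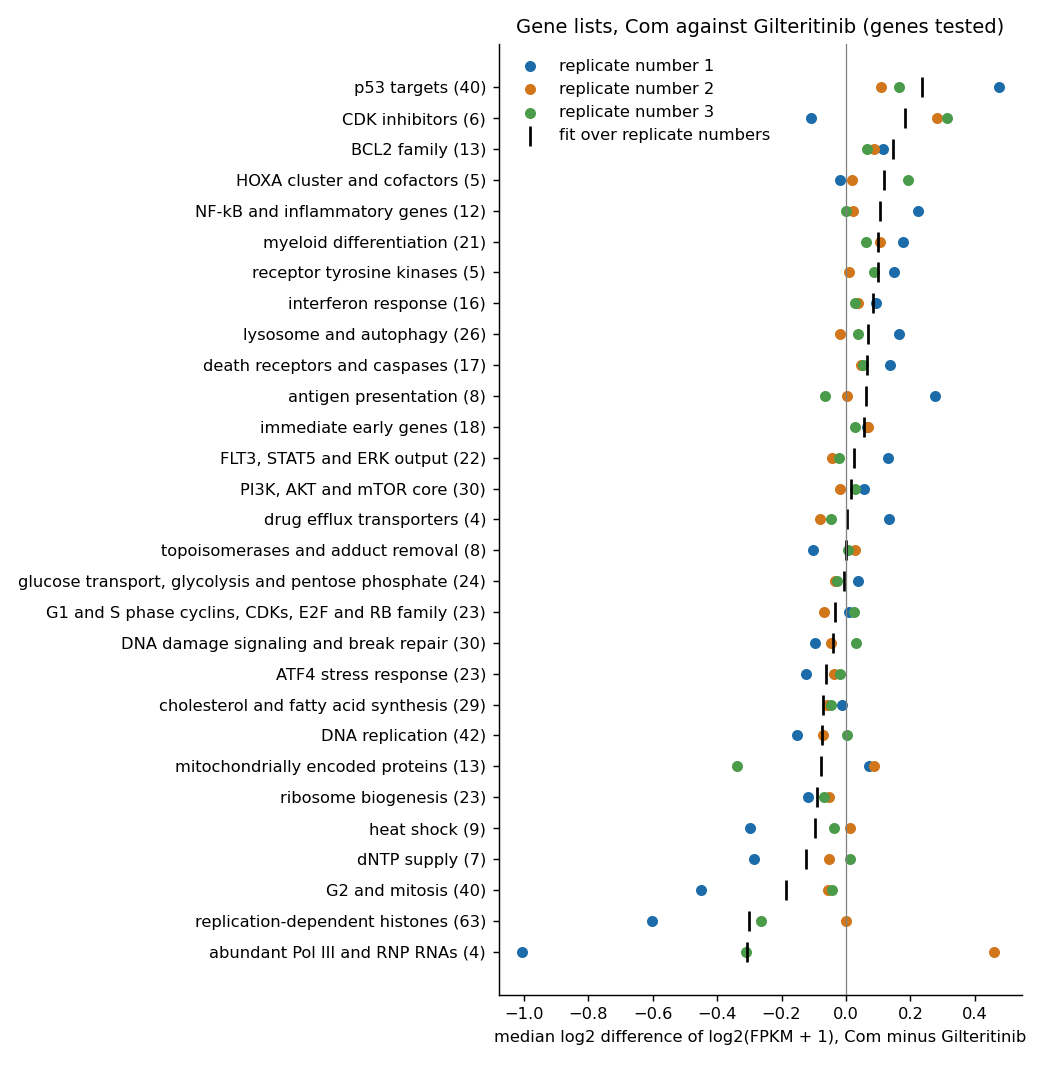
Median log2 difference of Com against Gilteritinib in 29 gene lists (number of genes tested in parentheses), by replicate number (colored points) and from the fit (black bars). The p53 targets stand highest with a fitted median of 0.24, and the lists of G2 and mitosis and of histones stand low at -0.19 and -0.30, each farthest from 0 at replicate number 1.

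The p53 target genes were higher in Com than in Gilteritinib, by a median log2 difference of 0.24 over the 40 members tested of 44 listed. Of these, 39 had a fitted difference above 0 and 1, SERTAD1, had -0.02. At an unadjusted p under 0.05, 12 of 40 were higher and 0 lower, where 2.48% and 1.91% of all genes were. The median of the list was 0.47 at replicate number 1, 0.11 at number 2 and 0.16 at number 3, and 39, 33 and 37 of the 40 genes were above 0. Without replicate number 1 the median was 0.14, with 36 of 40 genes above 0 and 15 higher at an unadjusted p under 0.05. In that fit 722 of all 18574 genes were higher at that p, against 461 in the main fit. Without Com replicate 1 alone the median was 0.19, with 37 of 40 genes above 0 and 3 at that p. Without the replicate block, 1 of the 40 genes had an unadjusted p under 0.05.

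CDKN1A, which encodes the CDK inhibitor p21, had the largest fitted difference of the p53 targets. Its FPKM in Com was 92.1, 30.1 and 30.7 at replicate numbers 1, 2 and 3, and in Gilteritinib it was 20.2, 20.3 and 20.8. All 3 Com libraries lay above the Gilteritinib libraries, which were close to each other, and the Com library of replicate number 1 lay far above the other two. The means were 51.0 ± 35.6 in Com and 20.5 ± 0.34 in Gilteritinib (SD, n = 3 in this and all other means), and the log2 difference was 1.07 ± 0.28 (SE), with an unadjusted p of 0.0042 from limma. At the single replicate numbers it was 2.13, 0.54 and 0.54. Without number 1 the fitted difference was 0.54 with an adjusted p of 0.0356 from limma. That fit rests on numbers 2 and 3 alone, which lay close together for this gene in every condition. In DMSO they were at 19.3 and 19.1, and in Mito-Lipo at 45.4 and 45.1.

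MDM2, the ubiquitin ligase that limits p53, was at 80.3, 28.6 and 30.6 FPKM in Com and at 34.4, 23.4 and 22.8 in Gilteritinib, a log2 difference of 0.63 ± 0.21 (unadjusted p = 0.0156 in limma). Com was above Gilteritinib at each replicate number, and the groups overlapped because the libraries of number 1 had more MDM2 in both conditions. TRIM22, an antiviral ubiquitin ligase that p53 induces, was at 70.7, 25.7 and 26.3 in Com and at 31.6, 20.4 and 19.5 in Gilteritinib. Its difference was 0.62 ± 0.20 and showed the same order at all 3 numbers. BTG2, an antiproliferative gene, was at 23.8, 16.0 and 16.3 in Com and at 9.81, 11.7 and 12.9 in Gilteritinib with no overlap (0.65 ± 0.22, unadjusted p = 0.0171 in limma). In GADD45A, a growth arrest and repair gene, the 3 replicate numbers differed least from each other among the larger differences of the list (0.89, 0.78 and 0.60). It was at 7.36, 3.90 and 3.69 FPKM in Com against 3.53, 1.85 and 2.09 in Gilteritinib. In DMSO it was at 3.37, 3.62 and 3.37, and with Mito-Lipo alone at 8.66, 2.61 and 2.54. At numbers 2 and 3 each drug alone was therefore below DMSO, and Com was near DMSO. Of the other members with an unadjusted p under 0.05, the fitted log2 difference was 0.62 in EDA2R and 0.55 in FAS, both death receptor genes, 0.52 in ZMAT3, 0.39 in BBC3, 0.29 in PPM1D, 0.19 in CCNG1 and 0.19 in ASCC3. FDXR, SESN1, PHLDA3 and DDB2 had differences of 0.62, 0.41, 0.41 and 0.35 with unadjusted p-values above 0.05.

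**Figure D2:**
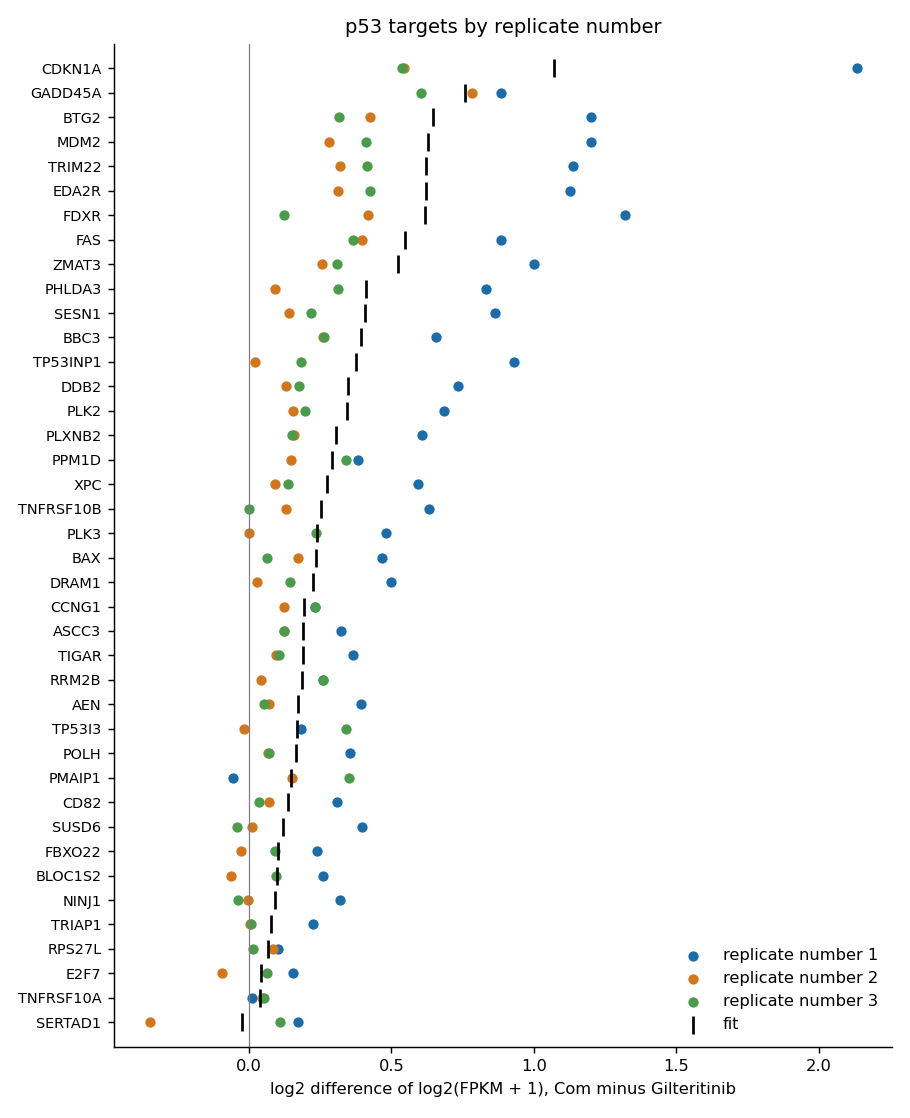
Log2 difference of Com against Gilteritinib for each of the 40 p53 targets tested, at replicate numbers 1, 2 and 3 (colored points) and from the fit (black bars). CDKN1A is at the top with 2.13 at number 1 and 0.54 at numbers 2 and 3, and in most genes the point of number 1 lies farthest to the right.

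The sequence shown for MDM2 is that of its promoter window with a p53 element, since of CDKN1A and MDM2, the p53 targets searched, MDM2 held such an element in 1 of its 4 windows (250 before to 50 after a transcription start in RefSeq, GRCh38.p14). The p53 element was searched as a pair of decamer half-sites with the C and G of each core fixed, at most 2 mismatches in all and at most 13 bases between the decamers, and 2.93% of 34796 promoter windows held one. The 5-base motif CCAAT, which factor NF-Y reads, was searched on both strands and was in 34.6%. Capitals mark the p53 element and CCAAT or its reverse complement in the window at chr12:68808767-68809066 (plus strand):
MDM2: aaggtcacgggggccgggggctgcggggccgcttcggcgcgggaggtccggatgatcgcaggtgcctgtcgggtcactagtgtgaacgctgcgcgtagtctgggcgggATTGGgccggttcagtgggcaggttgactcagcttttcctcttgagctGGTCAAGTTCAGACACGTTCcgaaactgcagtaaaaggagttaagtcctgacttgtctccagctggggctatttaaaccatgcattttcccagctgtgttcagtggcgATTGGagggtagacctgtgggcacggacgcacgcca
The element starts 94 bases before the start site and has 2 mismatches. In CDKN1A, whose window is chr6:36678464-36678763, none of the motifs searched here was found. Sequence outside that window was not searched, so a p53 element farther from the start would be missed. TRIM22 had no entry.

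**Figure D3:**
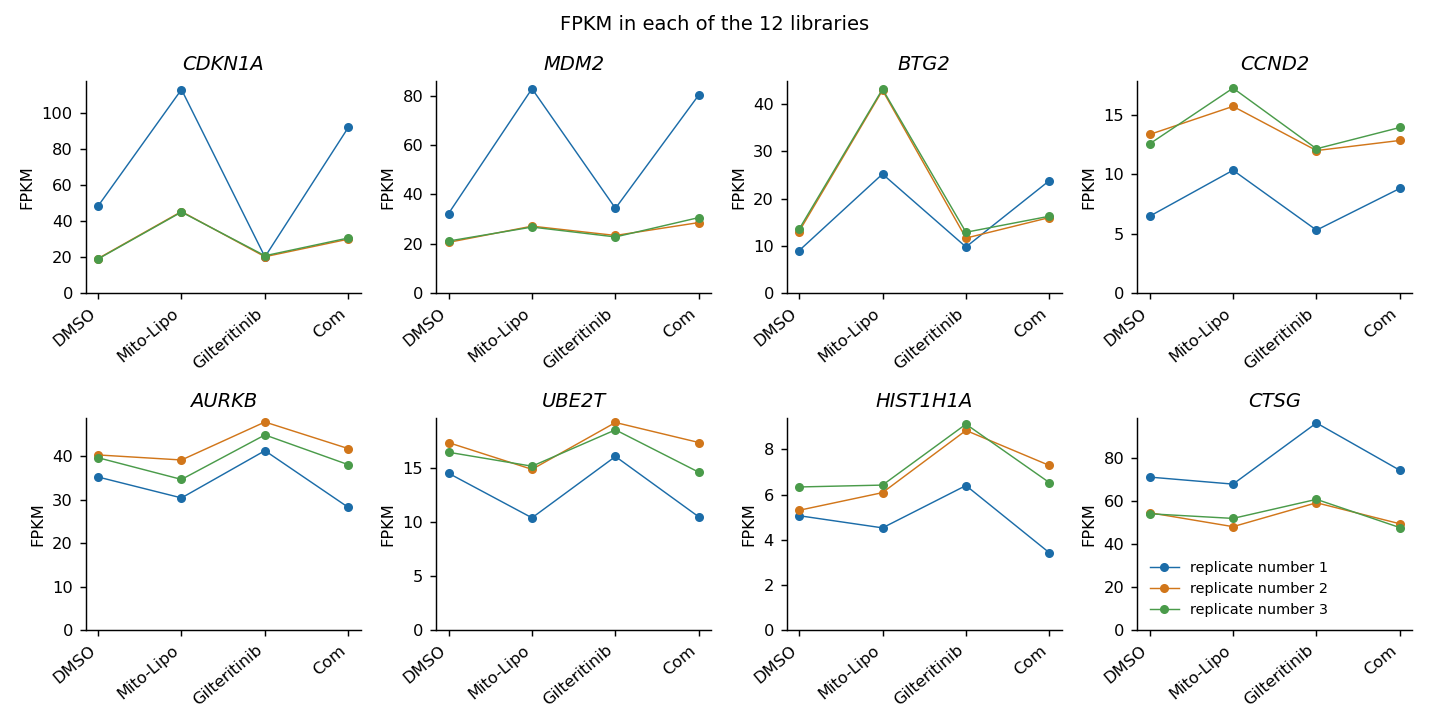
FPKM of 8 genes in each of the 12 libraries, by condition on the horizontal axis, with lines joining libraries of the same replicate number. CDKN1A, MDM2, BTG2 and CCND2 are higher in Com than in Gilteritinib and AURKB, UBE2T, HIST1H1A and CTSG lower at all 3 replicate numbers. CDKN1A at replicate number 1 is 92.1 in Com and 20.2 in Gilteritinib.

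The CDK inhibitors other than CDKN1A had smaller differences. CDKN2B, which encodes p15, was at 3.65, 3.005 and 3.69 FPKM in Com against 3.15, 2.40 and 2.84 (0.23 ± 0.09, unadjusted p = 0.028 in limma), CDKN2A, which encodes p16, had a difference of 0.26 (0.12, 0.33 and 0.34 by replicate number), CDKN2C 0.14, CDKN1B -0.03 and CDKN2D -0.11. Of the 6 CDK inhibitors tested, 4 were above 0 (median 0.18, and -0.11, 0.28 and 0.31 by replicate number) and 2 were higher at an unadjusted p under 0.05. At replicate numbers 1, 2 and 3, 3, 5 and 6 of the 6 were above 0. Without number 1 the median was 0.30 with 4 of 6 higher at that p, where 722 of all 18574 genes were. With Mito-Lipo alone against DMSO the median of the list was -0.21, with 5 of 6 below 0. CDKN2A, with 61.4% GC, was at 38.3, 39.6 and 39.9 FPKM in DMSO and 40.6, 23.2 and 20.95 in Mito-Lipo. It was at 38.55, 23.8 and 23.3 in Gilteritinib and 41.9, 30.2 and 29.7 in Com. At numbers 2 and 3 each drug alone was therefore below both DMSO and Com. In the list of G1 and S phase cyclins, CDKs, E2F and RB family genes, 8 of 23 were above 0 (median -0.03). CCND2, a D-type cyclin and a STAT5 target, was the single member with an unadjusted p under 0.05, at 8.81, 12.8 and 13.9 FPKM in Com against 5.30, 11.98 and 12.1 (0.30 ± 0.11). CDK2, the kinase that drives S phase, was at 16.0, 21.1 and 21.8 against 19.3, 22.3 and 21.9 (-0.11 ± 0.06), and CCNA2, its cyclin, had differences of -0.53, 0.10 and 0.12, which do not share a direction.

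Genes of cell death were described in a pair of lists. In the BCL2 family 10 of 13 members were above 0 with a median of 0.15, which was 0.06 without Com replicate 1. BBC3 (PUMA), a BH3-only killer with 69.7% GC, was the single member below an unadjusted p of 0.05. Its difference was 0.39 with an unadjusted p of 0.04998 in limma. With the correction for GC content its difference was 0.24, with an unadjusted p of 0.0841 in limma. The list had 0 such members with median-ratio scaling, quantile normalization, no filter or no trend. BBC3 was at 9.48, 4.35 and 4.57 FPKM in Com and at 5.65, 3.47 and 3.63 in Gilteritinib, above its partner at each replicate number but overlapping as a group. BAX, the pore-forming effector, was at 84.4, 74.2 and 70.9 against 60.7, 65.8 and 67.8 with no overlap (0.23 ± 0.13, unadjusted p = 0.1039 in limma). MCL1 and BCL2L1, which protect cells from death, had differences of 0.10 and 0.16, and BCL2 one of 0.01. Among death receptors and caspases 13 of 17 were above 0 with a median of 0.07. FAS was at 3.98, 1.46 and 1.38 FPKM in Com and at 1.70, 0.87 and 0.85 in Gilteritinib (0.55 ± 0.20, unadjusted p = 0.0206 in limma). These lists hold p53 targets too, FAS, BBC3, BAX, PMAIP1, TNFRSF10A and TNFRSF10B among them, so they are not separate from the p53 list.

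Genes of G2 and mitosis were lower in Com. All 40 tested members had a fitted difference below 0, with a median of -0.19, and 11 were lower at an unadjusted p under 0.05 where 1.91% of all genes were. The medians at replicate numbers 1, 2 and 3 were -0.45, -0.05 and -0.04, and 40, 30 and 26 of the 40 genes were below 0. In 13 of the 40 genes the 3 Com libraries lay below all 3 Gilteritinib libraries, where this held for 2.33% of all genes. Without replicate number 1 the median was -0.04, with 29 of 40 genes below 0 and 4 at an unadjusted p under 0.05, and without Com replicate 1 it was -0.09 with 1 gene. Whether fewer cells were in G2 and mitosis or cells held less of these RNAs cannot be told apart in bulk RNA.

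AURKB, the Aurora kinase of the chromosomal passenger complex, was at 28.2, 41.7 and 38 FPKM in Com and at 41.2, 47.8 and 44.8 in Gilteritinib. Com was below its partner at each number, and the difference was -0.32 ± 0.07 (unadjusted p = 0.0017 in limma). AURKA, the centrosomal Aurora kinase, was at 38.5, 37.5 and 37.4 against 48.8, 40.9 and 40.6 with no overlap (-0.19 ± 0.06). PLK1, a kinase of mitotic entry, was at 22.2, 30.0 and 30.6 against 31.6, 31.7 and 32.5, also with no overlap, and most of its difference was at replicate number 1 (-0.49, -0.08 and -0.08). KIF20A, a kinesin of cytokinesis, had -0.26, KIF23 -0.24, BUB1 -0.20, KIF2C -0.20 and BIRC5 (survivin) -0.19, all with unadjusted p-values under 0.05. HJURP, the chaperone that loads the centromeric histone CENP-A, and KIF18B, a microtubule-end kinesin, were not on the list and were named for their small p. HJURP was at 22.7, 27.1 and 27.7 in Com against 29.7, 30.2 and 31.8, and KIF18B was at 12.7, 16.5 and 13.9 against 16.8, 18.5 and 17.1, both with no overlap. TUBA1B, an alpha-tubulin, was at 129, 145 and 156 against 167, 168 and 173 (-0.24 ± 0.06).

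AURKB is shown as the mitotic gene with the smallest p. It has 2 promoter windows, and the first listed (chr17:8210176-8210475, minus strand) is given, while the other is not described. CCAAT was searched again, on both strands. The second search took TTTGAA and, as its other spelling, TTCGAA, a motif of cell cycle genes that 16.4% of promoter windows held on either strand. Capitals mark CCAAT on the reverse strand, found 153 bases before the start, and the cell cycle motif was not in these letters:
AURKB: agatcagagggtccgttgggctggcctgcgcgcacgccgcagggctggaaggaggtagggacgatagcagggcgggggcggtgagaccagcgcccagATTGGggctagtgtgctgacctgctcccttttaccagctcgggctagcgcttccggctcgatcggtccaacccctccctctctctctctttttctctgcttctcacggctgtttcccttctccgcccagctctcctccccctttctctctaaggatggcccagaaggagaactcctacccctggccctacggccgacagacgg

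DNA replication genes lay closer to 0. Of 42 tested, 38 were below 0 with a median of -0.07, and 3 were lower at an unadjusted p under 0.05 (MCM7, GINS2 and CDC45). The medians by replicate number were -0.15, -0.07 and 0.00, and without Com replicate 1 the median was -0.02 with 27 of 42 genes below 0. MCM7, a subunit of the replicative helicase, was at 131, 161 and 158 FPKM in Com and at 152, 171 and 174 in Gilteritinib (-0.15 ± 0.05), and Com was below its partner each time. GINS2, a helicase partner, had differences of -0.12, -0.17 and -0.16, among the most even of the list. TK1, which salvages thymidine, was at 43.3, 58.7 and 55.3 against 52.9, 60.2 and 59.5 (-0.14 ± 0.06), and DCTPP1, which clears modified dCTP, was at 46.0, 65.3 and 64.2 against 57.1, 71.3 and 75.3 (-0.22 ± 0.06). UBE2T, the ubiquitin-conjugating enzyme of the Fanconi anemia repair pathway, was at 10.4, 17.3 and 14.6 against 16.0, 19.2 and 18.5 (-0.35 ± 0.09).

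Among genes of DNA damage signaling and break repair no member had an unadjusted p under 0.05, and 21 of 30 were below 0 with a median of -0.04. BRCA1 was at 24.4, 29.2 and 28.3 FPKM in Com and at 29.8, 29.6 and 29.2 in Gilteritinib. The target of mitoxantrone, TOP2A, was at 132, 139 and 143 against 189, 144 and 145, so that Com lay below Gilteritinib with no overlap and most of the gap was at replicate number 1 (-0.52, -0.05 and -0.02). The fitted difference of TOP2A was -0.20 ± 0.11 with an unadjusted p of 0.09997 in limma. The topoisomerases and adduct-removal genes as a list had 4 of 8 above 0.

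The replication-dependent histone genes, which are expressed in S phase, had the lowest median of the lists with 10 or more members. Of 63 tested, 53 were below 0, the median was -0.30, and 36 were lower and 3 higher at an unadjusted p under 0.05. Replicate number 1 had a median of -0.60, number 2 one of 0.00 and number 3 one of -0.26, so that 59, 32 and 53 of the 63 genes were below 0. Without replicate number 1 the median was -0.16, and 7 genes were lower and 5 higher at an unadjusted p under 0.05. Without the replicate block, 18 were lower. With the GC correction 24 of 61 were lower with a median of -0.33. Histone genes exist in near-identical copies, and the sources used here do not say how shared reads were assigned, so the split between copies is uncertain.

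HIST1H2BE, an H2B gene, was at 70.8, 98.4 and 90.8 FPKM in Com and at 102, 103 and 112 in Gilteritinib, with no overlap (-0.29 ± 0.08, unadjusted p = 0.0044 in limma). HIST1H2BL, another H2B gene, was at 178, 290 and 253 against 281, 302 and 338 (-0.38 ± 0.10). HIST1H4C, an abundant H4 gene, was at 713, 1218 and 1010 against 1451, 1264 and 1305, a difference of -0.48 ± 0.18 with -1.02, -0.05 and -0.37 at the single numbers. HIST1H1A, a linker histone, was low, at 3.42, 7.29 and 6.53 against 6.40, 8.84 and 9.12, and was below its partner at each replicate number (-0.74, -0.25 and -0.43). HIST2H2AC went the other way at numbers 2 and 3, with 386, 324 and 367 in Com against 543, 114 and 172 in Gilteritinib (-0.49, 1.49 and 1.09). The windows of the pair of H2B genes are shown because they are the histone genes with the smallest p. Capitals mark 3 motifs, each searched on either strand. These were CCAAT as above, the TATA box searched as TATAAA (in 11.6% of promoter windows), and the octamer of H2B promoters searched as ATTTGCAT (in 1.76%). HIST1H2BE (H2BC6 in RefSeq) is at chr6:26183511-26183810 on the plus strand and HIST1H2BL (H2BC13) at chr6:27807880-27808179 on the minus strand:
HIST1H2BE: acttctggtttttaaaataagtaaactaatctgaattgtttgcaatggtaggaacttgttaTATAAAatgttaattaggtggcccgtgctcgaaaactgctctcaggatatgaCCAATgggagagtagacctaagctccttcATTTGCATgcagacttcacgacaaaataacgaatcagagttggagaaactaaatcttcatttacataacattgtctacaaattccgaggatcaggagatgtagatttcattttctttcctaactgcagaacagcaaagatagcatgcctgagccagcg
HIST1H2BL: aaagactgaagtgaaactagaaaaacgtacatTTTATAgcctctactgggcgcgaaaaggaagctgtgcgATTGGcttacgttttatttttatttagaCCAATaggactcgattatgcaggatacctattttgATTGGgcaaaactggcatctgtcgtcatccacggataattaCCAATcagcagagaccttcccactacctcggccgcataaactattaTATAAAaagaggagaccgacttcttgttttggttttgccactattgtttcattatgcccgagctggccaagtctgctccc
HIST1H2BL has TATAAA 30 bases before its start and CCAAT at 4 places, and HIST1H2BE has CCAAT once and the octamer 108 bases before its start.

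Of 22 output genes of FLT3, STAT5 and ERK, 12 were above 0 in Com against Gilteritinib with a median of 0.02, and 1 was higher and 1 lower at an unadjusted p under 0.05. Without replicate number 1 the median was -0.03, with 1 higher and 6 lower at that p. ETV4, an ERK-induced ETS factor, was at 1.72, 3.15 and 3.53 FPKM in Com and at 2.56, 4.48 and 3.68 in Gilteritinib (-0.28 ± 0.10). PIM2, a STAT5-induced kinase, was at 15.2, 25.9 and 25.9 in Com and at 12.95, 25.4 and 25.9 in Gilteritinib, and these groups overlapped. FLT3 was at 169, 157 and 158 against 155, 160 and 153 (0.05 ± 0.09). AKT1, the kinase of the PI3K pathway, was at 16.6, 16.5 and 16.3 against 16.4, 19.7 and 15.2 (-0.04 ± 0.07), and of 30 core genes of PI3K, AKT and mTOR 19 were above 0 with a median of 0.02 and 0 had an unadjusted p under 0.05. The 5 receptor tyrosine kinases tested were all above 0 (median 0.10), but 2 of 5 were without Com replicate 1 (median -0.05), and none had an unadjusted p under 0.05. CSF1R, the receptor of macrophage colony-stimulating factor, was at 17.7, 24.6 and 24.8 against 13.5, 22.8 and 22.6.

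Few inflammatory, interferon and myeloid genes had an unadjusted p under 0.05, 0 of 12 in the NF-kB list, 1 of 16 in the interferon list, 0 of 8 in antigen presentation, and 2 higher and 1 lower of 21 in myeloid differentiation. The median was 0.11 in the NF-kB and inflammatory genes (11 of 12 above 0), 0.08 in the interferon response (12 of 16), 0.06 in antigen presentation (5 of 8) and 0.10 in myeloid differentiation (17 of 21), beside 0.02 over all genes. Without Com replicate 1 these medians were -0.02, 0.01, -0.06 and 0.04, with 4 of 12, 11 of 16, 0 of 8 and 12 of 21 genes above 0. IFI6, an interferon-induced survival gene, was at 1.81, 1.93 and 2.60 FPKM in Com and at 1.30, 1.07 and 1.13 in Gilteritinib with no overlap (0.51 ± 0.16, unadjusted p = 0.0124 in limma), on few fragments. FCGR2A, an Fc receptor of myeloid cells, was at 12.1, 13.6 and 12.6 against 9.55, 11.3 and 11.5 with no overlap (0.22 ± 0.09). The neutrophil granule proteases went apart. CTSG (cathepsin G) was at 74.3, 49.4 and 47.6 in Com against 96.3, 59.2 and 60.8 (-0.32 ± 0.07, the smallest unadjusted p of the protein-coding genes, 0.0012 in limma), and ELANE (neutrophil elastase) was at 9.62, 5.16 and 5.84 against 7.37, 3.36 and 3.96 (0.44 ± 0.17, and 0.32 with the GC correction). Both had the same sign at all 3 replicate numbers. Of the HOXA cluster and its cofactors 4 of 5 were above 0, with PBX3 at 56.0, 51.0 and 50.4 against 50.1, 48.8 and 44.0.

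Metabolic and stress lists showed small medians. ATF4 stress response genes were at -0.06, with 14 of 23 below 0 and 4 lower at an unadjusted p under 0.05, where 1.91% of all genes were. These were AARS (-0.14), an alanyl-tRNA synthetase, and the serine and glycine synthesis genes PHGDH (-0.44), PSAT1 (-0.22) and SHMT2 (-0.11). PHGDH was at 4.62, 18.3 and 19.0 FPKM in Com against 10.4, 20.9 and 20.6, with differences of -1.02, -0.18 and -0.11 by replicate number. PSAT1 had -0.46, -0.14 and -0.05. The list had 0 lower genes at that p without the replicate block, without Com replicate 1 or without Gilteritinib replicate 1. With the GC correction it had 1. Ribosome biogenesis was at -0.09 with 20 of 23 below 0 and none at an unadjusted p under 0.05, and without Com replicate 1 its median was 0.00. Heat shock genes were at -0.10 with 8 of 9 below 0, but at 0.01 with 3 of 9 below 0 without Com replicate 1. DNAJB1, an HSP40 co-chaperone, was at 24.4, 23.7 and 23.9 against 30.9, 25.6 and 24.6 with no overlap (-0.16 ± 0.06). Cholesterol and fatty acid synthesis was at -0.07 (21 of 29 below 0), glucose metabolism at 0.00 (13 of 24 below 0) and lysosome and autophagy at 0.07 (23 of 26 above 0, but 10 of 26 without Com replicate 1), with 0 genes at an unadjusted p under 0.05 in each. The 4 drug efflux transporters tested were 2 above and 2 below 0. The 13 mitochondrially encoded protein genes had medians of 0.07, 0.09 and -0.34 by replicate number, so that their fitted median of -0.08 turned to 0.17 without Com replicate 1 and to 0.01 with quantile normalization. The 4 abundant small RNAs tested (median -0.31) had medians of -1.004, 0.46 and -0.31.

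The same addition of Mito-Lipo without gilteritinib, Mito-Lipo against DMSO, shares no library with Com against Gilteritinib, and the difference of both differences was tested as an interaction. No gene passed an adjusted p of 0.05 for it in limma, 0.0% of the genes tested with 0.305 as the smallest adjusted p, and 1375 (7.4%) had an unadjusted p under 0.05. Without replicate number 1, 408 genes passed the adjusted p. The p53 targets had a median of 0.26 for Mito-Lipo without gilteritinib beside 0.24 with it. By replicate number it was 0.64, 0.15 and 0.05 without gilteritinib and 0.47, 0.11 and 0.16 with it. For the interaction 4 of 40 members had an unadjusted p under 0.05, all 4 lower with gilteritinib. BTG2 was one of them, at 25.2, 42.9 and 43.2 FPKM in Mito-Lipo and 9.02, 13.1 and 13.5 in DMSO, a difference of 1.54 against 0.65 with gilteritinib (interaction -0.90 ± 0.31). CDKN1A had differences of 1.20 and 1.07 (interaction -0.13 ± 0.40). G2 and mitosis stood at -0.24 and -0.19, with 0 of 40 at an unadjusted p under 0.05 for the interaction. By replicate number its medians were -0.39, -0.18 and -0.18 without gilteritinib and -0.45, -0.05 and -0.04 with it. Histones stood at -0.36 and -0.30. Of the 63 histone genes, 10 (15.9%, beside 7.4% of all genes) had such a p, 8 higher and 2 lower with gilteritinib. Their medians by replicate number were -0.48, -0.37 and -0.16 without gilteritinib and -0.60, 0.00 and -0.26 with it.

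DNA replication had a median of -0.24 with Mito-Lipo alone, with 42 of 42 genes below 0, and one of -0.07 in Com against Gilteritinib, and 11 of the 42 had an unadjusted p under 0.05 for the interaction, all 11 higher with gilteritinib (7.4% of all genes passed in either direction). MCM4, a helicase subunit, had -0.34 and -0.06 (interaction 0.28). In cholesterol and fatty acid synthesis the median was 0.35 with Mito-Lipo alone and -0.07 in Com against Gilteritinib, and 14 of 29 genes had an unadjusted p under 0.05 for the interaction, all 14 lower with gilteritinib. DHCR7, the last enzyme of cholesterol synthesis, was at 9.33, 34.3 and 36.4 FPKM in Mito-Lipo, 7.74, 15.9 and 16.2 in DMSO, 6.39, 14.9 and 16.3 in Com and 6.48, 17.0 and 17.5 in Gilteritinib. Its libraries with Mito-Lipo alone were high at numbers 2 and 3, and Com did not exceed Gilteritinib at any number (interaction -0.90 ± 0.21). The cholesterol list with Mito-Lipo alone had medians of -0.04, 0.54 and 0.56 by replicate number.

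FLT3, STAT5 and ERK output genes had a median of 0.30 with Mito-Lipo alone and 0.02 in Com against Gilteritinib. FOS, an immediate early factor downstream of ERK, was at 31.98, 45.4 and 48.1 in Mito-Lipo against 20.9, 32.2 and 33.2 in DMSO, and at 21.6, 29.5 and 29.4 in Com against 21.2, 32.04 and 33.4 in Gilteritinib (interaction -0.62 ± 0.07). PIM2 had 0.50 and 0.08, CISH and SOCS3, feedback inhibitors that STAT5 induces, 0.62 and -0.07 and 0.53 and -0.09, and OSM, a STAT5-induced cytokine, 0.49 and -0.20. Immediate early genes stood at 0.29 and 0.06, NF-kB and inflammatory genes at 0.39 and 0.11, the interferon response at 0.30 and 0.08 and glucose metabolism at 0.17 and 0.00. In these 4 lists 7 of 18, 4 of 12, 3 of 16 and 6 of 24 genes had an unadjusted p under 0.05 for the interaction, lower with gilteritinib in all but JUND. CSF1R had 0.80 and 0.20 (interaction -0.60 ± 0.16).

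**Figure D4:**
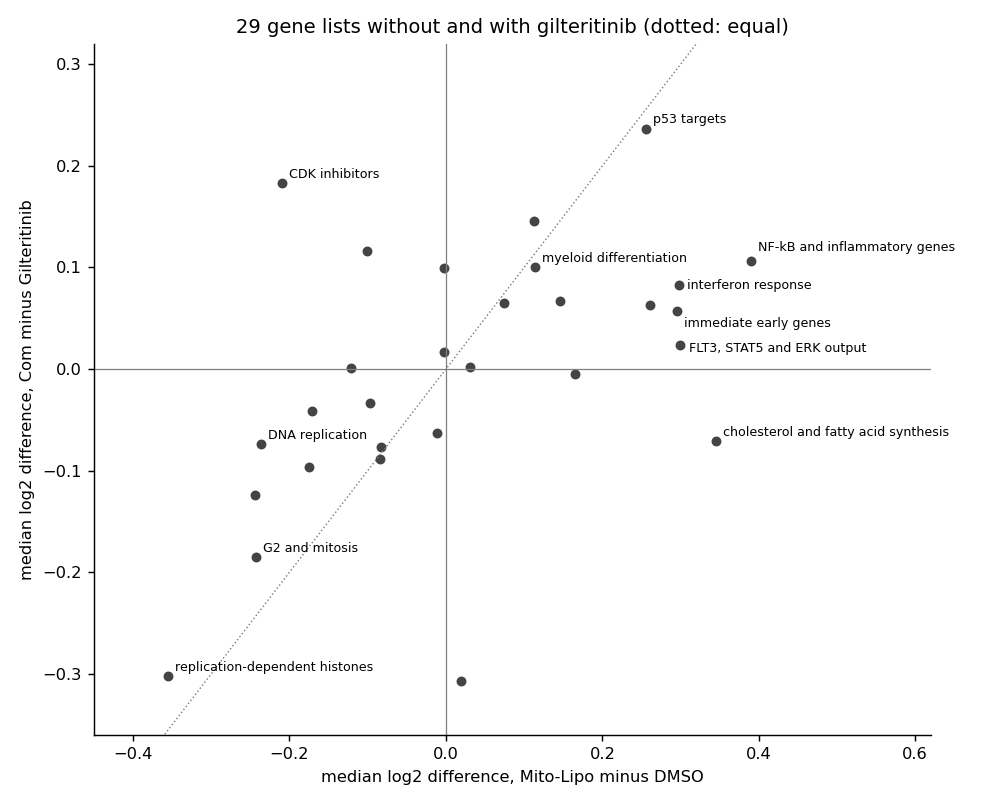
Median log2 difference of the 29 gene lists, with the addition of Mito-Lipo to DMSO on the horizontal axis and its addition to gilteritinib on the vertical axis, with a dotted line where both are equal. The p53 targets (0.26, 0.24) lie near the line and cholesterol and fatty acid synthesis (0.35, -0.07) lies far below it.

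By replicate number both differences went together at number 1 and apart at numbers 2 and 3. Across 7498 protein-coding genes with a mean FPKM of at least 5, which are not independent replicates, the correlation of Com minus Gilteritinib with Mito-Lipo minus DMSO was 0.74 at number 1, -0.37 at number 2 and -0.29 at number 3. The difference of Com against Gilteritinib itself correlated by 0.07 between numbers 1 and 2, 0.23 between 1 and 3 and 0.37 between 2 and 3. Of 1022 protein-coding genes that were higher in Mito-Lipo than in DMSO at an unadjusted p under 0.05, 798 were above 0 in Com against Gilteritinib, with a median of 0.07 beside 0.31 in Mito-Lipo against DMSO, where 56.7% of all protein-coding genes tested were above 0. By replicate number that median was 0.19, -0.01 and 0.02. Of 1009 such lower genes, 681 were below 0, with a median of -0.04 beside -0.23, and by replicate number it was -0.14, -0.01 and 0.04.

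One group of genes separated numbers 2 and 3 from number 1. JUND, an AP-1 factor, was at 69.0, 78.1 and 88.4 FPKM in Com and at 68.5, 36.5 and 43.6 in Gilteritinib (0.70 ± 0.28), and at 93.1, 52.4 and 47.3 in Mito-Lipo and 85.0, 106 and 133 in DMSO. At numbers 2 and 3, Com and DMSO were therefore high and each drug alone was low, while at number 1 Com and Gilteritinib were level. CLEC11A, a secreted growth factor named here after its values were seen, was at 320, 184 and 186 in Com and at 330, 106 and 114 in Gilteritinib, with 301, 92.0 and 94.2 in Mito-Lipo and 303, 259 and 267 in DMSO. H2AFX, the histone variant marked at DNA breaks, was at 94.9, 104 and 124 in Com and at 141, 47.3 and 58.7 in Gilteritinib. FADD, the adaptor of death receptors, was at 3.56, 1.46 and 2.20 against 3.53, 0.19 and 0.40, on as few as about 13 fragments in a library. RAB24, a small GTPase linked to autophagy, was at 9.09, 8.67 and 8.82 against 5.88, 3.58 and 3.51, so it differed at number 1 too (0.92 ± 0.25).

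The GC content of the longest transcript was 69.7% in JUND, 67.7% in CLEC11A, 66.4% in H2AFX, 58.6% in FADD and 58.4% in RAB24, beside a median of 47.2% over expressed protein-coding genes. Of the protein-coding genes with a positive interaction at an adjusted p under 0.05 without replicate number 1, 53.6% were above 61.0% GC, against 4.61% of those with a negative one and 11.1% of all protein-coding genes tested. The correction for GC content, chosen after the values were seen, left the difference at 0.54 in JUND, 0.73 in FADD, 0.90 in RAB24 and 1.06 in CDKN1A. The correction was run on the other genes and lists too, and only some of its values are given here. With it the list median was 0.21 in p53 targets, -0.20 in G2 and mitosis and -0.09 in DNA replication. It was -0.03 in FLT3, STAT5 and ERK output and -0.01 in PI3K, AKT and mTOR. How much of a difference comes from GC content was not tested.

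Of the 12 protein-coding genes named in each direction for the smallest p, those not yet described had, as the rule requires, the same sign at all 3 replicate numbers. CD36, a scavenger receptor, was at 31.8, 17.2 and 19.5 FPKM in Com against 25.96, 14.4 and 15.0 (0.30 ± 0.08), and EVI2B, a membrane protein of myeloid cells, was at 16.3, 22.1 and 23.3 against 14.3, 19.6 and 20.7 (0.17 ± 0.05). ZNF385A, a zinc finger protein that binds p53, was at 22.1, 27.7 and 25.97 against 15.5, 17.5 and 18.2 with no overlap (0.54 ± 0.16). PTGER4, a prostaglandin E2 receptor, had 0.26, HELZ2, a helicase, 0.36, PLD3, an endolysosomal exonuclease, 0.34, and PARP10, an ADP-ribosyltransferase, 0.43. ZNF385A, HELZ2, PLD3 and PARP10 had GC contents above 61.0%, and with the GC correction their differences were 0.47, 0.24, 0.27 and 0.32. In the other direction, GATC, a subunit of a mitochondrial amidotransferase, was at 5.98, 6.52 and 6.42 against 7.37, 7.71 and 7.40 (-0.22 ± 0.06), and C16orf91 was at 14.0, 14.8 and 13.9 against 16.1, 16.6 and 17.9 (-0.23 ± 0.05), both with no overlap. Both had a positive difference with Mito-Lipo alone (0.11 and 0.16) and an interaction of -0.33 and -0.39.

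The 5 smallest p-values belonged to loci of small RNAs, 3 of them miRNA loci, counted on few fragments. Of 463 miRNA loci tested, 29 were higher and 16 lower at an unadjusted p under 0.05, where 2.48% and 1.91% of all genes were. Other classes of small RNA had high shares too. In either direction 9.72% of miRNA loci had such a p, beside 15.3% of snoRNA, 8.98% of snRNA and 7.52% of miscellaneous RNA genes. The share was 3.14% in protein-coding genes. The fragments fall on the hairpin locus in an RNA-seq library, and the mature miRNA was not measured. MIR4316 was at 3.60, 2.06 and 2.44 FPKM in Com and at 0.68, 0.38 and 0.37 in Gilteritinib, which is 9, 5 and 6 fragments against 2, 1 and 1, and 3, 2 and 3 in Mito-Lipo against 0, 0 and 1 in DMSO. Its log2 difference was 1.31 with an adjusted p of 0.5441 in limma. MIR4316 reached 1 FPKM only in libraries of Com and Mito-Lipo, so it passed the filter through these alone. MIR652 had 8, 7 and 5 fragments in Com and 5, 1 and 2 in Gilteritinib. MIR3181 had 7, 1 and 2 against 3, 0 and 0. MIR4295 had 30, 20 and 18 against 18, 12 and 17, and its FPKM of 10.03, 6.90 and 6.11 lay above 5.12, 3.84 and 5.28 with no overlap.

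The mature sequences of these 4 loci (RefSeq, GRCh38.p14) are given because they are the miRNA loci with the smallest p, chosen after the values were seen. Capitals mark the seed, bases 2 to 8, and no seed was shared:
hsa-miR-4316: gGUGAGGCuagcuggug
hsa-miR-652-5p: cAACCCUAggagagggugccauuca
hsa-miR-652-3p: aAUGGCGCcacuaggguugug
hsa-miR-3181: aUCGGGCCcucggcgccgg
hsa-miR-4295: cAGUGCAAuguuuuccuu
The loci lie at chr17:77397028-77397044 (minus strand), chrX:110055349-110055373 and chrX:110055389-110055409, chr16:50742313-50742331, and chr10:112634180-112634197 (plus strand).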

How the data were processed

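RNA of MV4-11 cells treated for 24 h was sequenced in 12 libraries, 3 for each of 4 conditions. The authors deposited FPKM per gene in 1 table, with no further scaling stated. The submitters' processing notes name Bowtie 0.12.9, Cufflinks 2.1.1, HTSeq, DESeq2 and the build mm10, a mouse build, although the table holds human identifiers; what each tool did is not given in the sources used here. Of 43876 identifiers, 40169 were found in GENCODE release 29, from which gene types and lengths came. The labels name 1 RNA extraction kit and the paper another reagent.

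The FPKM were used as log2(FPKM + 1) for genes that reached 1 FPKM in 3 or more libraries. All tests used limma 3.58.1 in R 4.3.3 over 12 libraries, with 1 mean per condition, the replicate number as a block, a mean-variance trend (6 residual and 2.89 prior degrees of freedom) and Benjamini-Hochberg adjustment over 18574 genes. The libraries were paired by replicate number. All 18 correlations of same-numbered libraries, in deviations from condition means, were from 0.165 to 0.657. For Com with Gilteritinib they were 0.657, 0.325 and 0.381. Correlations between libraries of different numbers were not compared with these. Number 1 stood apart in every condition, so these values cannot tell whether numbers 2 and 3 pair across conditions. Depth, 31730000 to 41330000 fragments per library, was recovered from the FPKM of genes with 1 transcript, of which 96.0 to 96.4% were whole numbers of fragments within 0.1. Simulated data held a shift between replicate numbers and 200 changed genes among 18574. In them the blocked fit recovered 82.2% of log2 changes of 1 and 96.6% of those of 2, with 7 false calls per run. Recovery where the difference between treatments itself varies with the replicate number was not tested. In the measured data CDKN1A, with a fitted log2 difference of 1.07, had an adjusted p of 0.9909 in limma.

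The comparison, the gene lists and the rule for named genes were chosen with earlier results of these data known. The rule takes FLT3, CDKN1A, CDK2, CCNA2, AKT1 and 1 gene that is not reported here, from each list its 2 genes of smallest p, and in each direction the 12 protein-coding genes with the smallest p, a mean FPKM of at least 5 in the higher condition and the same sign at all 3 replicate numbers. Other genes described are list members with an unadjusted p under 0.05 or were named after their values were seen, as were the sequences shown. Alternatives were no replicate block, a pseudocount of 0.1, no filter, only genes of mean FPKM 5 or more, quantile normalization, median-ratio scaling, no trend, only 6 libraries, protein-coding genes only and each library or replicate number left out. The GC correction, which takes a smooth curve over GC content of the longest transcript off each library (97.4% of genes have one), was added after the data were seen.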

Additional observations from a re-analysis of the deposited data

How the results depend on the processing

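No gene passed the adjusted p of 0.05 in Com against Gilteritinib except without replicate number 1 (6 higher, 1 lower) and with no filter on low values (1 lower), so that leaving out libraries gave 0 to 6 higher and 0 to 1 lower genes. For the interaction the count was 0 except with no filter (1), without Gilteritinib replicate 2 (1) and without replicate number 1 (408), a range of 0 to 408. The unadjusted counts of 461 higher and 354 lower genes were 149 and 154 with no replicate block, 1131 and 746 with no filter, 179 and 227 with a mean FPKM of at least 5, 728 and 435 with only the 6 libraries compared, and 284 and 202 with protein-coding genes only. Leaving out libraries gave 313 to 722 higher genes, the most without replicate number 1, and 227 to 502 lower genes, with 235 without Com replicate 1 and 227 without replicate number 3. The cause was not tested, beyond the fewer genes or samples that some alternatives use. Of the 79 named genes, those that follow changed sign. With a library or replicate number left out, the difference ranged from -0.059 to 0.11 in FLT3, -0.21 to 0.11 in CCNA2, -0.12 to 0.052 in AKT1, -0.023 to 0.16 in ABCC5, -0.016 to 0.33 in HLA-DQB1, -0.0245 to 0.17 in CD74, -0.47 to 0.064 in MT-ND4L, -0.47 to 0.14 in MT-ATP8 and -0.68 to 0.22 in VTRNA1-1, and ENO1 was 0.015 with quantile normalization. Of the 29 list medians, 13 changed sign under some alternative, in 41 instances in all, 9 of them without Com replicate 1. The lists were FLT3, STAT5 and ERK output, NF-kB, PI3K, small RNAs, antigen presentation, efflux, glucose metabolism, heat shock, immediate early, lysosome, mitochondrial, receptor tyrosine kinases and topoisomerases. List medians moved beyond the spread of replicates in 31 of 550 instances. Genes on few fragments, such as FADD, IFI6 and the miRNA loci, are limited by depth.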
